A study of Homo sapiens with 12 samples.

Results

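The cells described here lie between the non-cycling and the cycling cells of one single-cell RNA library of Nalm-6, a B-cell precursor acute lymphoblastic leukaemia line. They were selected on a proliferation score P, the summed UMIs (unique molecular identifiers, each standing for 1 captured RNA molecule) of MKI67, TOP2A, RRM2, TYMS, CENPF and CCNB1 per 10000 UMIs of a cell. Of the 4800 passing cells of the library labelled RUNX1, which held more than 2000 and fewer than 6000 genes and under 20% mitochondrial UMIs, those from the 50th to the 70th percentile of P were taken, which gave 960 middle cells. The 2400 cells below them (low cells) and the 1440 cells above them (high cells) served for comparison. The series has 2 single-cell libraries with 10398 passing cells in all, 5598 of them in the control.

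The cells of the library labelled RUNX1 carried a Tet-On regulator and a lentiviral response vector with RUNX1 cDNA, and had received 500 ng/ml doxycycline for 72 h. The control library was labelled empty vector and 72 h, its title names DMSO, and no label gives it doxycycline. The labels describe stable transduced lines with or without the insert, but its title does not settle whether the control library is the empty-vector line. Excess dead cells had been removed with beads. With 1 library per condition, RUNX1, the inducer, the vector and the culture cannot be told apart, and no difference between cells was tested across replicates. Intervals given here are 95% intervals and cover counting error alone. A further 10 samples, of ChIP-seq, were not analysed here.

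In a dividing cell, E2F factors switch on the genes for origin licensing and nucleotide supply at the end of G1, histone RNA accumulates while DNA is copied, and the MYB-MuvB and FOXM1 complexes then switch on the mitotic genes. MYC and the nucleolar ribosome factories are raised when a resting cell grows towards its first S phase. Precursor B cells are known to alternate between division, driven by the pre-B receptor, and rest, in which light-chain genes are rearranged. A group of cells cut by a score in the middle of this order is a range and not a cell type.

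P itself ran from 1.041 to 5.63 in the middle cells, with a median of 2.51 and a median of 4 UMIs of the 6 genes per cell. The last low cell had a P of 1.0409 and the first middle cell 1.0411, and the last middle cell had 5.6323 and the first high cell 5.6437, so that the limits fell within a continuous range. Of the low cells, 1902 had no UMI of the 6 genes. TYMS, the thymidylate synthase, made up 55.4% of the 6 genes' UMIs in the middle cells, against 29.4% in the high cells, and was seen in 84.4% of the middle cells. MKI67 made up 6.02% in the middle cells and 13.6% in the high cells, and TOP2A, the mitotic topoisomerase, 10.2% and 21.6%. These values chose the cells and are given as a description. The composition differed within P: TYMS stood at 9.75, 164 and 436 CPM (UMIs of the gene scaled to a common total of the summed cells) in low, middle and high cells, and MKI67 at 0.486, 17.8 and 201 CPM. The middle cells had thus covered 36.1% of the distance from low to high cells for TYMS and 8.64% for MKI67.

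Depth rose with P. The median cell held 11247 UMIs and 2957 genes among low cells, 16143.5 UMIs and 3528 genes among middle cells, and 21159.5 UMIs and 4305 genes among high cells, and the summed ranges held 28818809, 15454663 and 31077143 UMIs. Mitochondrial UMIs made up a median of 13.5%, 13.3% and 12.2%. Reads had been aligned to a joint human and mouse reference, and UMIs on mouse genes were a median of 1.21%, 0.962% and 0.849% of a cell's UMIs. The part of depth and of free RNA in the results was not tested. The libraries shared 12 cell barcodes, 4 of them on middle cells. No doublet caller was run.

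Promoters of 4 genes are shown because they hold letters known from early or late cell cycle genes, CENPA both. TYMS and CLSPN had covered 36.1% and 44.9% of the distance from low to high cells, and PLK1 and CENPA 3.47% and 3.93%. Each runs from 250 bases before to 50 bases after the RefSeq start, in build GRCh38.p14. Capitals mark E2F letters (TTTCGCGC, TTTGGCGC, TTTCCCGC, TTTGCCGC or TTCGCGC), CHR letters of the late genes (TTTGAA or TTCGAA) and NFY letters (CCAAT), each on either strand.
TYMS: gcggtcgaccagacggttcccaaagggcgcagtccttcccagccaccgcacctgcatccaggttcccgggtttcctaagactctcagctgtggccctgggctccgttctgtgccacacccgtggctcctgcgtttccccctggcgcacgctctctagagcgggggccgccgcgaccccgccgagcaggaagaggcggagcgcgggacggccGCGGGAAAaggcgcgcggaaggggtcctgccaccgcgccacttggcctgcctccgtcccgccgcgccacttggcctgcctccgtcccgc
CLSPN: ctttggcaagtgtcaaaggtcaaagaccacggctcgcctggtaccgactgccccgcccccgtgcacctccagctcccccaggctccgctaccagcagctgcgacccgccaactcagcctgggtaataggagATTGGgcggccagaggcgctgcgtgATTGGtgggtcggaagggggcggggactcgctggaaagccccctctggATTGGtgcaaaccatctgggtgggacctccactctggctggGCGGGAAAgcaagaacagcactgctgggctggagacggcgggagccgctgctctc
PLK1: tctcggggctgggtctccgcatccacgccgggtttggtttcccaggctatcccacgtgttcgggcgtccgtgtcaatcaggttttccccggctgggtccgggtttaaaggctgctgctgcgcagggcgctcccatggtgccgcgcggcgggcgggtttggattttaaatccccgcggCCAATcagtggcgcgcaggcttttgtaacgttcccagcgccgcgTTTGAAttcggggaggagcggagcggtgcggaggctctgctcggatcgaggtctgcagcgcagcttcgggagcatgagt
CENPA: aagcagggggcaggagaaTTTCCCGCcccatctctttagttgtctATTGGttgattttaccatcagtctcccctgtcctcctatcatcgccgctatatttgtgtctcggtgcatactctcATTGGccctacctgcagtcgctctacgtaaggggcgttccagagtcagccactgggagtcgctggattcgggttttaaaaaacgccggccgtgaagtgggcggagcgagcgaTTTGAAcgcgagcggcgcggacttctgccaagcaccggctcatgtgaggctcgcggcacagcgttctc
TYMS (chr18:657403-657702, plus strand) held 1 E2F match 39 bases before the start, and CLSPN (chr1:35769929-35770228, minus strand) held 1 at 5 bases before it. PLK1 (chr16:23678639-23678938, plus strand) and CENPA (chr2:26785806-26786105, plus strand) each held TTTGAA, at 29 and 18 bases before the start, and CENPA also held an E2F match at 232 bases before it. Of the 6 genes of P, E2F letters stood in the promoters of TYMS and CCNB1, and CHR letters in those of MKI67, TOP2A and CENPF.

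The same letters were counted over the lists. Of all 35116 promoters of this length, 4.96% held E2F letters, 16.4% CHR letters and 34.6% NFY letters. Of the 30 promoters found for the origin licensing list, 66.7% held E2F letters and 6.67% CHR letters. Of the 42 promoters found for the spindle list, 9.52% held E2F letters and 78.6% CHR letters. The mitotic kinases, with 27 promoters, had 7.41% and 63% in the same order. The 25 promoters of the MYC and nucleolus list held E2F letters in 12% and CHR letters in 20%. A match of letters is a description and not a bound site. Of the 134 named genes, 102 had a promoter in the table, of which 7.84%, 21.6% and 45.1% held E2F, CHR and NFY letters.

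Genes of DNA replication licensing, which load and fire replication origins, were higher in the middle cells than in the low cells for all but 1 of the measured members, and 19 of them were still lower than in the high cells. Among the 8171 genes that reached 10 CPM in any of the 3 ranges, 12.6% were higher and 15.3% lower in middle than in low cells by 0.5 or more on the log2 scale (a 1.41-fold change), and 4.72% were higher and 6.57% lower in middle than in high cells. The latter are 386 and 537 genes, and totals without mitochondrial and ribosomal protein genes gave 805 and 495. Of the 34 measured licensing genes, 33 were higher than in low cells and none lower, with a median log2 difference of 2.21, and 19 were lower than in high cells, with a median of -0.59. All genes had medians of -0.07 and -0.02. MCM10 (chromosome 10, 13203558 to 13253110 in GRCh37), which helps to assemble the replicative helicase, stood at 0.937 CPM in low, 32.4 CPM in middle and 65.3 CPM in high cells. CLSPN (chromosome 1, 36185819 to 36235579), the replication checkpoint adaptor claspin, stood at 1.56, 38.8 and 84.6 CPM. CDC45, a subunit of that helicase, stood at 0.937, 19.99 and 65.2 CPM. The log2 difference of middle over low was 5.11 (4.55 to 5.73) for MCM10, 4.64 (4.198 to 5.11) for CLSPN and 4.42 (3.85 to 5.04) for CDC45. E2F8, a repressor that acts late in S phase, was the member farthest below the high cells, at 4.37, 7.05 and 32.7 CPM. The ranges of these cells were chosen on cell cycle genes, so the rise of other cell cycle genes with P follows the choice. The limits of P also bound where the middle cells could stand for genes that move with its members, so the places given next are a description too.

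That place was measured as a position, the share of the CPM difference from low to high cells that the middle cells had covered, over the genes whose high and low cells differed by 0.5 or more (17.8% of genes higher and 19.5% lower in high cells). The 1454 genes higher in high cells had a median position of 54.5%, and the 1597 genes lower in high cells one of 75.7%. The licensing list stood at 55.7% (quartiles 44.8 to 71.0, 33 genes), close to the median of rising genes. Genes of DNA synthesis and repair stood at 46.4% (39.3 to 53.3, 45 genes). Condensin and cohesin stood at 21.4%, mitotic kinases and regulators at 15.2% (10.6 to 23.6, 34 genes), spindle and kinetochore genes at 14.2% (9.41 to 20.1, 49 genes) and replication-dependent histones at 8.24% (3.23 to 16.8, 15 genes). The quartile ranges of the licensing and the mitotic lists lay apart, as the plot of positions shows. MKI67, TOP2A, CCNB1 and CENPF, mitotic genes of P itself, stood at 8.64%, 8.74%, 12.2% and 16.7%, where the mitotic lists stood, so the separation is in part set by the rule. With P ranked after thinning, licensing stood at 71.3% and mitotic kinases at 25.5%.

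**Figure D1:**
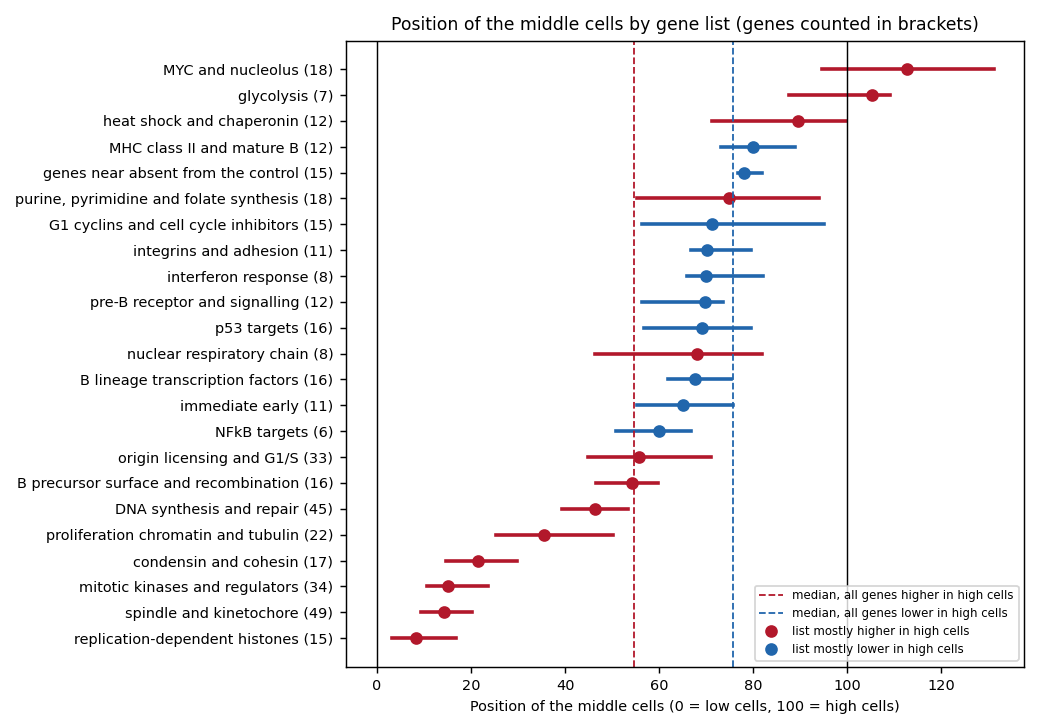
Position of the middle cells between low cells (0) and high cells (100) in percent of the CPM difference, 1 line per gene list with the number of genes counted in brackets. Points are medians and bars quartiles over genes. The mitotic lists lie near 15, licensing at 55.7, and the MYC and nucleolus list at 112.6, which was 97.2 with no limits on cells.

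Of the 48 genes of DNA synthesis and repair, 43 were higher than in low cells and 38 lower than in high cells. TK1, the salvage thymidine kinase, stood at 1.04, 28.7 and 131 CPM in low, middle and high cells. ASF1B, a histone chaperone of the replication fork, stood at 1.63, 29.8 and 87.1 CPM. POLQ, the polymerase of end joining, stood at 0.451, 5.95 and 20.01 CPM. All 3 were nearer to the low than to the high cells in CPM.

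Of the 15 measured histone genes, 5 were higher than in low cells, 1 was lower, and 13 were lower and 1 higher than in high cells. HIST1H1B, a linker histone, stood at 4.79, 12.8 and 104.5 CPM. HIST1H4C, the most abundant of them, stood at 261, 399 and 3247 CPM, a position of 4.62%. HIST1H3G (0.104, 2.98 and 17.4 CPM), HIST1H3B (0.625, 3.24 and 19.7 CPM) and HIST1H2AL (1.67, 4.46 and 12.3 CPM) rested on 46, 50 and 69 UMIs in the middle cells. Histone copies are near identical, so reads may be split among them. How fully the library captured histone RNA was not tested.

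Mitotic genes were raised over the low cells but far below the high cells. Of 35 mitotic kinases and regulators, 30 were higher than in low cells and 1 was lower, and 34 were lower than in high cells, with medians of 2.12 and -2.24. Of 49 spindle and kinetochore genes, 46 were higher and 1 lower than in low cells, and 49 were lower than in high cells, with medians of 2.02 and -2.32. PLK1, the polo-like kinase of mitotic entry, stood at 1.53, 4.34 and 82.4 CPM. AURKB, a kinase of the chromosomal passenger complex, stood at 1.91, 7.12 and 111 CPM. UBE2C, the ubiquitin conjugase of the anaphase-promoting complex, stood at 2.57, 19.7 and 288 CPM. CENPA (chromosome 2, 26987157 to 27023935 in GRCh37), the histone variant of centromeres, stood at 0.312, 2.33 and 51.6 CPM from 9, 36 and 1605 UMIs. Their log2 difference of middle over high was -4.25 (-4.62 to -3.90) for PLK1, -3.96 (-4.25 to -3.69) for AURKB, -3.87 (-4.04 to -3.70) for UBE2C and -4.47 (-4.99 to -4.00) for CENPA. KIF20A, CDCA3, HJURP and DLGAP5, which act in spindle, centromere or cytokinesis, completed the 8 genes lowest against the high cells. KIF20A, a cytokinesis motor, had 13 UMIs in the middle cells, and it also lay under the low cells with an interval of the log2 difference from -1.85 to 0.10.

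Leaving out the 6 genes of P, the genes highest against the low cells were PBK, MCM10, DIAPH3, ESCO2, HIST1H3G, TK1, CLSPN and DLGAP5, with log2 differences from 4.51 to 5.12. They hold replication genes (MCM10, TK1, CLSPN) and mitotic genes (PBK, a mitotic kinase, and DLGAP5, a spindle protein) alike, since both groups were near 0 in low cells. PBK, DIAPH3, ESCO2, HIST1H3G and DLGAP5 reached the floor of 10 CPM only in high cells. ESCO2, the acetyltransferase that fixes cohesin in S phase, stood at 0.243, 7.31 and 46.7 CPM. Of 20 condensin and cohesin genes, 13 were higher than in low cells and 16 lower than in high cells. Of 22 genes of proliferation chromatin and tubulin, 18 were higher than in low cells and 17 lower than in high cells, and TUBA1B, an alpha tubulin, stood at 203, 833 and 2586 CPM.

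Finer steps along P showed that the lists did not move together. In bins of 240 cells from the 50th to the 70th percentile, the summed licensing list rose from 858 to 1440, 2206 and 2712 CPM, and it was 3146 CPM in the 70th to 80th and 2412 CPM in the 90th to 100th percentile. The summed histones were 444, 471, 508 and 787 CPM in the same 4 bins and 2323 CPM from the 70th to the 80th percentile. The mitotic kinases rose through all bins, from 666 to 1542 CPM within the middle cells and to 5297 CPM in the last bin. Most of the licensing rise lay within the middle cells, and most of the rise in counted histone UMIs beyond them. Depth rose along the bins too, from a median of 13846.5 to 17432.5 UMIs within the middle cells.

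**Figure D2:**
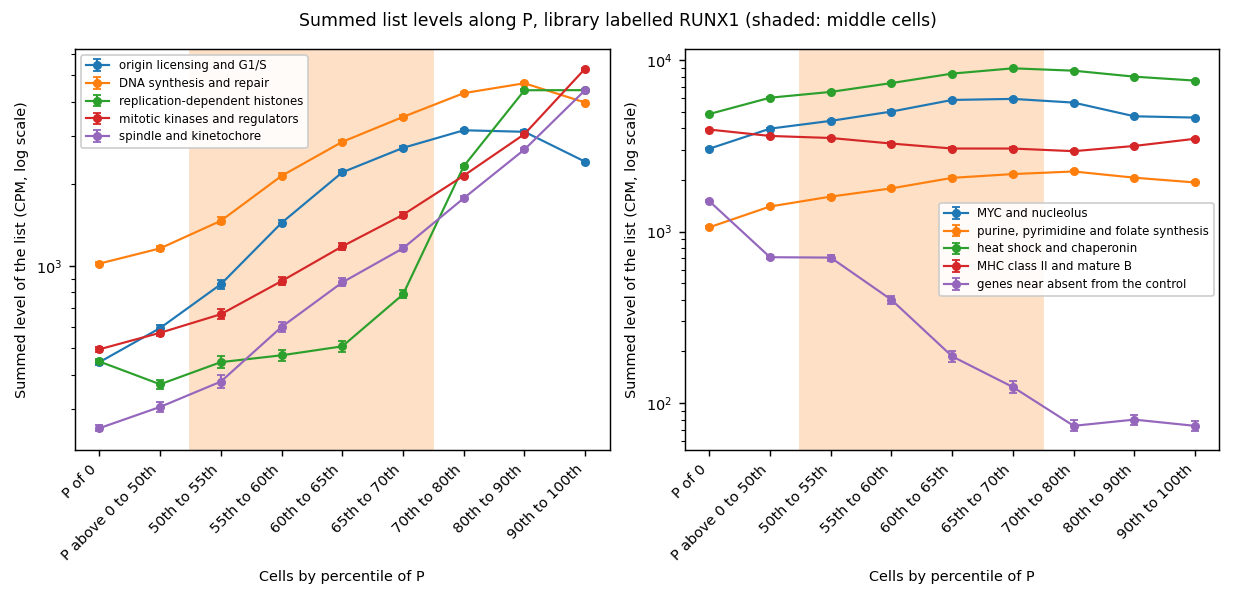
Summed level of 10 gene lists in CPM (log scale) in cells binned by percentile of P, with Poisson intervals for counting error and the middle cells shaded. Licensing genes reach 2712 CPM in the last middle bin, histones stay at 787 CPM there, and the genes near absent from the control fall from 705 to 124 CPM.

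To compare single cells at 1 depth, each cell was thinned to 8000 UMIs, which left out 508 low, 88 middle and 16 high cells. UMIs were summed over 40 S phase genes and 51 G2/M genes, none of them among the 6 of P. The median number of S gene UMIs was 5 in low, 16 in middle and 27 in high cells, with a middle 10th to 90th percentile range of 5 to 32. The median number of G2/M gene UMIs was 7, 12 and 37. Of the 872 thinned middle cells, 59.2% (55.8 to 62.5) held at least 13 S gene UMIs, the 10th percentile of the high cells, and 31.5% (28.5 to 34.7) held 9 or fewer, the 90th percentile of the low cells. For G2/M genes the same shares were 17.4% (15.0 to 20.1) and 49.0% (45.6 to 52.3), with 33.6% between. The middle cells overlapped the high cells more in S genes than in G2/M genes, and the distributions of UMIs per cell show the same shift. Mitotic genes are part of P, and its upper limit bounds the middle cells, so this difference is in part set by the rule.

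**Figure D3:**
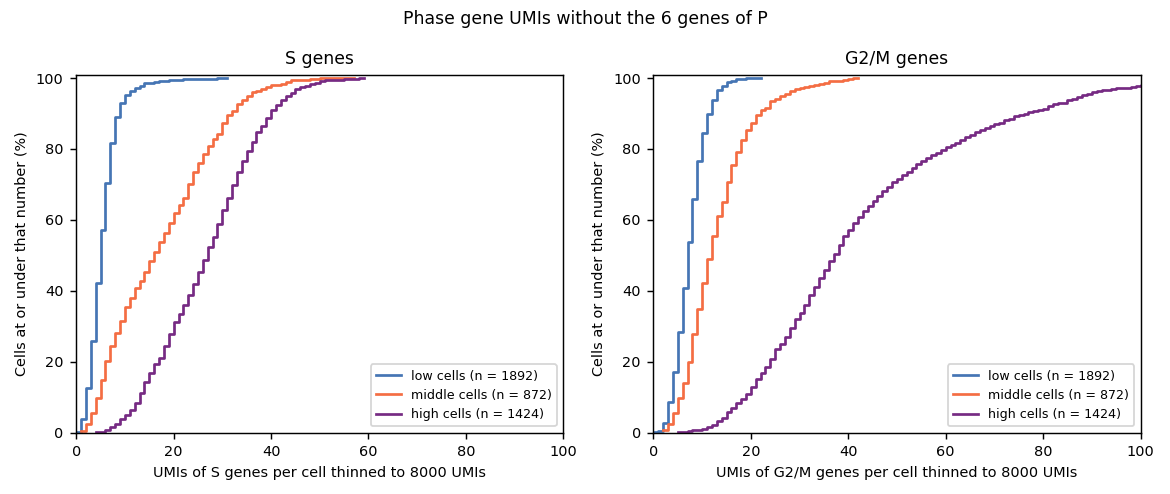
Cumulative share of cells (percent) by the number of UMIs of 40 S genes (left) and 51 G2/M genes (right) per cell thinned to 8000 UMIs, for 1892 low, 872 middle and 1424 high cells. The S gene curve of the middle cells crosses 50% at 16 UMIs, between 5 and 27, and their G2/M curve crosses it at 12 UMIs, near the low cells at 7.

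Phase calls on the thinned cells, from scores over the same S and G2/M genes, split the middle cells. Of 872, 359 or 41.2% (37.9 to 44.5) were called G1, 396 or 45.4% (42.1 to 48.8) S and 117 or 13.4% (11.2 to 15.9) G2/M. Low cells were called G1 in 96.3% and high cells in 0.843%, with 38.0% of high cells called S and 61.2% G2/M. The calls of the middle cells moved with the random thinning itself: 2 further draws gave 46.9% and 51.6% G1, 43.1% and 37.8% S, and 9.98% and 10.6% G2/M. Depth and mouse UMI shares differ between the ranges, as given above, and their part in the calls was not tested.

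The middle cells were placed differently for growth genes. Of 30 measured genes of the MYC and nucleolus list, which holds MYC and factors that make ribosomes, 25 were higher than in low cells and none lower, with a median log2 difference of 0.67. None differed from the high cells by 0.5 in either direction, with a median of 0.11. Their median position was 112.6% (quartiles 94.7 to 131.1, 18 genes), and 12 of the 18 stood above the high cells. With no limits on cells the median position was 97.2%, so that the place beyond the high cells turned. TFRC, the transferrin receptor, stood at 20.9, 50.3 and 55.1 CPM in low, middle and high cells. LYAR, a nucleolar growth regulator, stood at 50.0, 114 and 125 CPM. MYBBP1A, a nucleolar protein, stood at 12.3, 26.4 and 19.2 CPM, and UTP20, a factor of the small subunit, at 8.33, 12.9 and 10.0 CPM. MYC itself stood at 341, 531 (519 to 542) and 439 CPM. Along P the summed list rose from 3043 CPM in cells with a P of 0 to 5941 CPM in the 65th to 70th percentile and fell to 4622 CPM in the last bin.

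Biosynthesis lists differed in how many members were higher than in low cells. Of 22 genes of purine, pyrimidine and folate synthesis, 17 were higher than in low cells and 2 lower than in high cells, at a median position of 74.9%. PAICS, an enzyme of purine synthesis, stood at 77.9, 178 and 199 CPM, MTHFD1, an enzyme of folate metabolism, at 17.7, 42.6 and 57.0 CPM, and NME1, a nucleoside diphosphate kinase, at 196, 429 and 369.5 CPM. MTHFD2, the mitochondrial folate enzyme, stood lower, at 108, 135 and 207 CPM. Of 21 heat shock and chaperonin genes, 13 were higher than in low cells and none differed from high cells by 0.5, at a median position of 89.5%. HSPD1 and HSPE1, the mitochondrial chaperonin pair, stood at 325, 646 and 646 CPM and at 298, 580 and 505 CPM. Of 21 glycolysis genes, 5 were higher than in low cells and 2 lower. LDHA, the lactate dehydrogenase, stood at 142, 312 and 299 CPM, MIF at 176, 351 and 331 CPM and the enolase ENO1 at 281, 541 and 518.5 CPM, while the glucose transporter SLC2A3 stood at 31.3, 18.4 and 10.3 CPM. Of 35 nuclear respiratory chain genes, 2 were higher than in low cells, among them ATP5G1, a subunit of ATP synthase, at 184, 339 and 312 CPM.

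Only 5 genes, 0.0612% of those measured, stood 0.5 or more above both low and high cells, and 16, or 0.196%, stood as far below both. The 5 above were DHX37, an RNA helicase of ribosome assembly, at 7.08, 14.2 and 8.98 CPM, SNHG3, a host of small nucleolar RNAs, at 115, 214.5 and 146 CPM, FKBP11, a prolyl isomerase of the secretory pathway, at 93.0, 140.7 and 97.7 CPM, DDN at 7.43, 11.3 and 6.18 CPM, and SLC8A1, a sodium-calcium exchanger, at 6.49, 10.5 and 7.11 CPM. Under a mitochondrial limit of 10%, SLC8A1 turned to -2.02 over low and -1.59 over high cells. SNHG3 rested on 3315 UMIs in the middle cells, and its log2 differences were 0.90 (0.83 to 0.97) over low and 0.56 (0.49 to 0.62) over high cells. The 5 farthest below both were KIF20A, SMTN, a smooth muscle actin binder (6.18, 3.24 and 11.8 CPM), BRD8, a chromatin reader (23.3, 14.6 and 25.4 CPM), SRGAP2 (13.1, 7.64 and 12.1 CPM) and RP11-343N15.5 (22.8, 14.4 and 23.4 CPM). BRD8 and KIF20A overlap at their ends on chromosome 5 in GRCh37, and SRGAP2 has near-identical copies, so their reads may be shared. Under the same 10% limit, KIF20A (1.30) and SMTN (0.25) turned to higher than in low cells.

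Genes of G1 control held more members lower than higher than in low cells. Of 25 measured G1 cyclins and inhibitors, 5 were higher and 10 lower than in low cells, and 1 was higher and 4 lower than in high cells. CDKN1B, the inhibitor p27, stood at 35.0, 19.9 and 23.2 CPM, CDKN2D, the inhibitor p19, at 70.02, 34.2 and 42.7 CPM, and CCNG2, a cyclin of resting cells, at 34.0, 16.0 and 21.1 CPM. Against the high cells none of these 3 differed by 0.5. KLF2, a factor of quiescent lymphocytes, stood at 10.7, 2.85 and 2.12 CPM. MXD4, an antagonist of MYC, fell stepwise, at 85.3, 44.5 and 16.1 CPM, and CCND3, the cyclin D of precursor B cells, rose stepwise, at 130, 298 and 458 CPM.

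B lineage genes held members higher and members lower than in low cells. Of 18 genes of the precursor surface and recombination list, 9 were higher and 1 lower than in low cells, at a median position of 54.2%. DNTT, the terminal transferase of receptor diversity, stood at 59.1, 173 and 321.5 CPM, with log2 differences of 1.55 (1.46 to 1.64) over low and -0.89 (-0.95 to -0.83) over high cells. RAG1, the recombinase, stood at 6.28, 22.2 and 42.4 CPM. CD44, an adhesion receptor, went the other way, at 19.2, 4.4 and 1.80 CPM, and CD99 stood at 57.3, 41.5 and 30.1 CPM.

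The B lineage factors, of which 28 were measured, held 6 higher and 7 lower than in low cells. In addition 3 were higher and none lower than in high cells. MYB stood at 18.4, 66.0 and 89.3 CPM, ID3, an inhibitor of E proteins, at 48.5, 152 and 199.5 CPM and LMO2 at 5.00, 14.0 and 16.9 CPM. ID2, a relative of ID3, stood at 188, 80.4 and 45.2 CPM. Of 21 pre-B receptor genes, 2 were higher and 7 lower than in low cells. CD79A, the receptor's signalling chain, stood at 504, 228.5 and 128 CPM, BLNK, its adaptor, at 37.5, 63.7 and 52.9 CPM, BLK, a Src kinase, at 88.1, 53.9 and 41.1 CPM and IGLL1, the surrogate light chain, at 967, 1271 and 2158 CPM. The MHC class II and mature B list had 18 measured members, with none higher and 10 lower than in low cells. MS4A1, which encodes CD20, stood at 26.5, 8.15 and 1.13 CPM, CD37 at 48.0, 14.6 and 3.99 CPM, HLA-DQA1 at 30.4, 13.9 and 12.2 CPM and TNFRSF13C, the BAFF receptor, at 19.7, 14.0 and 9.52 CPM. Of 10 RUNX partners, none was higher and 2 were lower than in low cells, namely the corepressors TLE1 (77.5, 33.8 and 16.8 CPM) and TLE2 (19.8, 10.3 and 11.5 CPM). CBFB, the partner subunit of RUNX1, stood at 24.8, 23.0 and 34.8 CPM.

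Genes that the control hardly expressed fell along P and were not gone in the middle cells. The list of 15 was drawn from these libraries in earlier work, so its direction against the control is no independent evidence. All 15 were lower in middle than in low cells, with a median of -1.92, and all 15 were higher than in high cells, with a median of 2.10, at a median position of 78.1% (quartiles 76.8 to 81.8). CD28, C1orf141, LINC00967, STON1-GTF2A1L, FBXO32 and FGFBP2 reached the floor of 10 CPM only in low cells. Their lower level in the middle than in the low cells was thus in part set by the floor. FCER1G, the signalling chain of Fc receptors, stood at 298, 80.4 (76.0 to 85.0) and 18.8 CPM, and GCHFR, a regulator of biopterin synthesis, at 297, 72.3 and 10.7 CPM. IL4I1, an amino acid oxidase, stood at 136, 33.3 and 8.33 CPM and the chemokine CCL3 at 77.2, 21.6 and 9.30 CPM. CD28, the T-cell costimulator, stood at 24.1, 4.66 and 1.38 CPM, C1orf141 at 54.3, 9.38 and 0.290 CPM, LINC00967 at 29.6, 7.25 and 0.129 CPM and STON1-GTF2A1L, a readthrough whose reads its parent genes may share, at 28.6, 5.69 and 0.611 CPM. In thinned cells, 59.7% of low, 20.5% of middle and 8.71% of high cells held an FCER1G UMI, against 69.8%, 31.0% and 13.5% without thinning, and 0.146% of the control cells of the same P.

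No other human cell type was identified in the library against which a background share could be read, and the mouse UMI shares given above were not used as one. Against FCER1G, some of the 15 genes changed along P and others hardly did. For 100 UMIs of FCER1G there were 18.2, 11.7 and 1.54 UMIs of C1orf141 in low, middle and high cells. GCHFR gave 99.6, 89.9 and 56.6, and CCL3 25.9, 26.9 and 49.4. By contrast, KDR gave 24.48, 23.89 and 21.54, IL4I1 45.67, 41.35 and 44.27, and FBXO32 10.85, 11.42 and 11.45. What part free RNA has in the levels of the middle cells was not tested.

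Other genes lowest against the low cells were RP11-495P10.8 (25.5, 2.33 and 0.450 CPM), AC005307.3, ABLIM1, an actin binder (38.4, 8.74 and 2.03 CPM) and PPEF1, a phosphatase (17.0, 3.88 and 2.48 CPM). Genes highest against the high cells included IQCF3, LINC01087, LGMN, a lysosomal protease (11.5, 4.4 and 0.386 CPM) and IL18RAP, a chain of the interleukin 18 receptor (16.0, 3.82 and 0.483 CPM). All of these, and the genes just named as lowest against the low cells, reached the floor of 10 CPM only in low cells. Their direction against the low cells was thus in part set by the floor. Of 26 listed p53 targets, 23 were measured, of which 4 were higher and 9 lower than in low cells. TP53INP1 (42.8, 13.3 and 4.05 CPM), SESN3 (21.9, 8.48 and 5.02 CPM) and BTG2, an antiproliferative factor (127, 54.2 and 35.6 CPM), fell along P, and DDB2, of nucleotide excision repair, rose at 25.5, 41.9 and 77.4 CPM. Of 19 immediate early genes, 1 was higher and 6 lower than in low cells: FOS stood at 61.7, 20.3 and 10.0 CPM, SPRY1, a feedback inhibitor, at 62.6, 29.2 and 15.6 CPM and the phosphatase DUSP5 at 11.0, 2.91 and 1.06 CPM, while DUSP2 stood at 3.92, 10.4 and 8.01 CPM. Of 22 interferon response genes, 1 was higher and 6 lower, with MX1 at 15.3, 6.41 and 2.67 CPM and IRF7 at 58.5, 26.5 and 20.1 CPM. Of 15 integrins and adhesion genes, 1 was higher and 7 lower. ITGB2, the beta chain of LFA-1, was the 1, at 0.937, 7.89 and 10.2 CPM, and ITGB7 stood at 87.4, 32.6 and 9.52 CPM. Of 11 NFkB targets, 1 was higher (TNFAIP3, 17.5, 31.0 and 44.7 CPM) and 1 lower (ICAM1, 13.5, 7.38 and 5.28 CPM). Of 10 BCL2 family genes, 1 was lower, BNIP3L, a receptor of mitophagy, at 112, 61.5 and 54.8 CPM.

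The middle cells differed among themselves in genes that neither P nor the calls had used. Middle cells called G1 held a median of 14983 UMIs and a median P of 1.57, and those called S 17541.5 UMIs and 3.66. Of 8082 genes outside the score, 7.57% were higher and 11.5% lower in cells called S than in cells called G1. All 15 genes near absent from the control were lower in the cells called S, with a median of -2.11. Their summed level also fell along P within the middle cells, from 705 CPM in the first bin to 124 CPM in the last. The difference between the calls is thus not separate from P. FCER1G stood at 120 CPM (111 to 130) in cells called G1, 28.9 (25.1 to 33.1) in cells called S and 31.4 in cells called G2/M. C1orf141 stood at 22.3, 0.278 and 3.74 CPM, from 2 UMIs in cells called S. Of 23 p53 targets, 12 were lower in cells called S, and BTG2 stood at 75.8, 27.2 and 57.1 CPM. CD79A stood at 293, 157 and 163 CPM and DNTT at 127, 207 and 218 CPM.

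Growth genes differed less between the calls. Of 30 genes of the MYC and nucleolus list, 2 were higher and none lower in cells called S than in cells called G1, with a median of 0.31. MYC stood at 472 CPM (454 to 490), 584 (566 to 602) and 609 CPM, and HSPD1 at 541, 724 and 765 CPM. The middle cells called G1 thus lay above the 341 CPM of MYC in all low cells. Cycle genes outside the score rose: 15 of 16 licensing genes and 17 of 20 mitotic kinases and regulators were higher in cells called S, with 1 of the latter lower, and TK1 stood at 9.95, 43.7 and 33.7 CPM. The calls were made on other cycle genes, so this rise follows the calls and is a description.

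**Figure D4:**
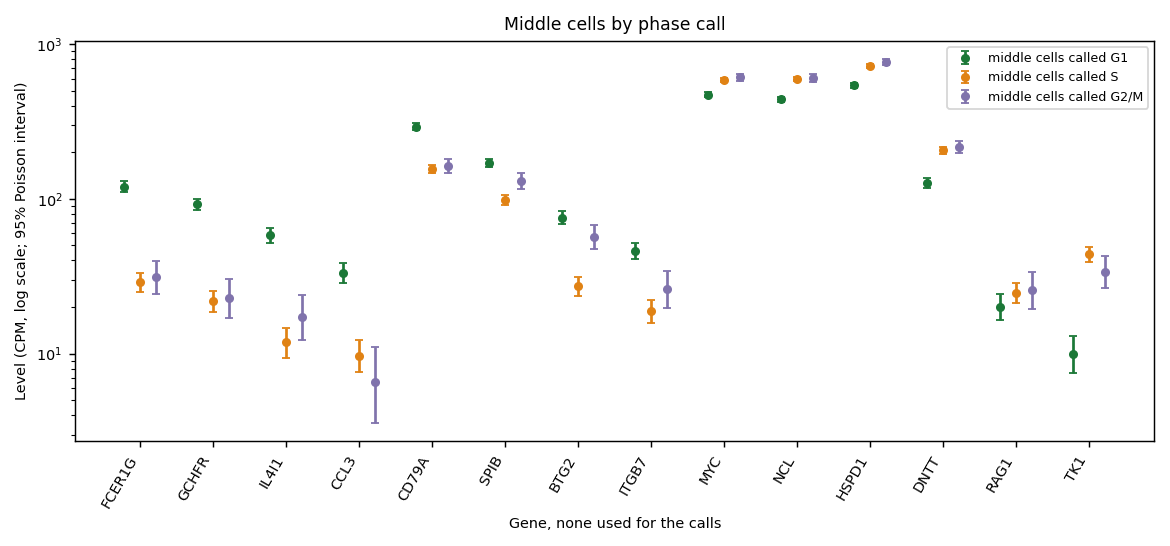
Levels of 14 genes in CPM (log scale) with Poisson intervals in the middle cells called G1 (359 cells), S (396 cells) and G2/M (117 cells), none of the genes being used for the calls. FCER1G falls from 120 CPM in cells called G1 to 28.9 CPM in cells called S, and MYC changes from 472 to 584 CPM.

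Clustering of all passing cells without the 6 genes put the middle cells in several groups. It used 2000 variable genes, 10 principal components and 20 neighbours. Of 8 clusters, 1 of 781 cells held 458 or 47.7% (44.5 to 50.9) of the middle cells, together with 212 low and 111 high cells. MT1X, MT1G, IGLC7, PDLIM1, MYC, TCL1A and NME1 were among its leading genes, and metallothionein and immunoglobulin lambda copies share reads. The 4 clusters made mostly of low cells held 332 middle cells, or 34.6% (31.6 to 37.7), and the 3 made mostly of high cells held 170, or 17.7% (15.3 to 20.3). No cluster was given a cell type name. Among the neighbours of a middle cell, a mean of 46.1% were middle, 37.1% low and 16.8% high cells. Of a low cell's neighbours 86.4%, and of a high cell's 87.6%, were of its own range. Low, middle and high cells made up 50%, 20% and 30% of the passing cells, so the own-range shares are not compared between ranges. A ranking by the other S and G2/M genes kept 54.9% of the 960 cells in its own 50th to 70th percentile, and put 31.7% lower and 13.4% higher.

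Against the control at the same P, growth and glycolysis genes were lower in the middle cells, and genes of mature B cells more often higher than lower. The high cells differed in the same directions from control cells above the limits of P, so this is not particular to the middle cells. Medians there were -0.53 for the MYC and nucleolus list, -0.90 for glycolysis and 0.60 for the MHC class II and mature B list. Some of the mature B genes passed the floor only through the middle cells, as given below. RUNX1, the targeted gene, was at 34.5 CPM in the middle cells and at 74.6 CPM in the control cells, lower in the library labelled RUNX1, and the counts do not separate vector from endogenous RNA. The 800 control cells with a P from 1.041 to 5.61 were 14.3% of its passing cells, held a median of 10419.5 UMIs and had a median P of 3.56 against 2.51. Of 7686 genes, 11.2% (861) were higher and 16.0% (1228) lower in the middle cells, with totals without mitochondrial and ribosomal protein genes giving 2043 higher and 664 lower. That scaling adds 0.18 to every log2 difference, and a median of ratios, which gives 1230 higher and 750 lower, adds 0.12.

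Of 30 genes of the MYC and nucleolus list, 17 were lower and none higher than in the control cells of the same P, with a median of -0.57 (9 lower and 1 higher with the totals above). Of 21 glycolysis genes, 14 were lower, with a median of -0.77 (13 lower), and LDHA stood at 312 against 1037 CPM. Of 21 heat shock genes, 13 were lower, with a median of -0.59 (5 lower), and HSPD1 stood at 646 against 1359 CPM. Of 34 licensing genes, 14 were lower (8), with a median of -0.46, and of 26 spindle genes, 5 were lower (3). Higher in the middle cells were 9 of 16 members of the MHC class II list (11), with CD37 at 14.6 against 0.572 CPM, and 8 of 16 immediate early genes (11), with FOS at 20.3 against 1.37 CPM. In the MHC class II list 1 member was lower (0), TNFRSF13C, with a log2 difference of -0.61. CD37, FOS and HLA-DQA1 (13.9 against 4.12 CPM) passed the floor only through the middle cells, so their direction was in part set by it. The 9 measured genes near absent from the control passed the floor only through the middle cells, so their higher level was set by the choice. FCER1G, 1 of them, stood at 80.4 against 0.343 CPM. DNTT stood at 173 against 510.5 CPM and MYB at 66.0 against 207 CPM.

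In the control 147 cells lay below and 4651 above the limits of P, so its low range rests on few cells. There the position of the control cells of the same P, over the same genes, was 59.1% for licensing, 46.4% for DNA synthesis, 18.4% for mitotic kinases, 14.8% for spindle genes, 5.97% for histones and 139% for the MYC and nucleolus list. MYC stood at 610, 615 and 483 CPM there. The summed MYC and nucleolus list stood at 7366, 9091 and 7871 CPM in control cells below, within and above the limits. Its genes were chosen in the library labelled RUNX1, so its position in the control divides by a small difference and is not a stable value. Of 685 thinned control cells of the same P, 24.2% (21.1 to 27.6) were called G1 and 63.4% (59.6 to 67.0) S. Median depth and the spread of P within the limits differed from the middle cells, and their part in these values was not tested.

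Markers of the B precursor lineage were present in the middle cells, and those of other blood cells were low. Of 13 listed B precursor markers, 12 were in the annotation and all 12 were at 10 CPM or more, summing to 5132 CPM, against 6023 CPM in low and 5932 CPM in high cells. Listed markers summed to 7.31 CPM for T cells, 20.3 CPM for NK cells, 28.3 CPM for myeloid cells, 1.29 CPM for erythroid cells and 1.75 CPM for megakaryocytes in the middle cells, with 7 of 10, 1 of 7, 8 of 15, 6 of 8 and 2 of 5 at 0 UMIs, among them CD3D, CD3G, CD14, S100A8, HBB and PF4. NKG7 (29.2, 19.0 and 15.7 CPM), CST3 (60.3, 25.0 and 12.5 CPM) and TRAC (15.5, 6.92 and 4.76 CPM) fell with P. The plasma cell markers summed to 125 CPM, nearly all from MZB1, a chaperone of immunoglobulin, at 54.2, 120 and 131 CPM.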

How the data were processed

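Single-cell RNA of 2 Nalm-6 libraries (10x) was used, with 1 library per condition. The deposited values are whole-number UMI counts per gene and cell, made by the authors with Cell Ranger 3.0.2 on a joint hg19 and mm10 reference, per the labels' processing notes. Only human genes entered P and the levels. UMIs of cells were summed per range and scaled to CPM. No condition is replicated, so no test was run: exact Poisson intervals (sums), exact conditional binomial intervals (ratios) and Clopper-Pearson intervals (shares) cover counting error alone. A gene was called at a log2 difference of 0.5 with 10 CPM in at least 1 range. Cells were thinned to 8000 UMIs before phase calls. Python 3.11.15, scipy 1.17.1 and scanpy 1.11.5 were used, and scripts were tested on simulated data.

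Members and lists were chosen with earlier results of these data known. Named genes were the 6 genes of P, the 8 highest and 8 lowest differences against each neighbouring range, the 5 most above and 5 most below both, and up to 4 per list. HIST1H4C, MYC, CDKN1B, CDKN2D, FCER1G, GCHFR, IL4I1, CCL3 and RUNX1 were named outside that rule after their values were seen, as were the promoters shown. Of 57905 annotated genes, 55538 were matched to GENCODE coordinates on GRCh37. Promoters came from RefSeq on GRCh38.p14, a different build from the files. Cells outside the limits were left out, 691 beside the 4800 cells kept and 475 from the control. Some genes that this rule names are not reported here.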

Additional observations from a re-analysis of the deposited data

How the results depend on the processing

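No paired analysis was possible because each condition has 1 library. There were 17 alternatives, 2 of them (further random thinnings) chosen after seeing the data, and not all were run for each result. List medians, run under 12, gave 572 values within the limits of the reported ones, 28 moved and 0 reversed, where only medians of 0.5 or more could count as reversed. Of smaller ones, none over 0.36 in size, 44 values changed sign, among them histones over low cells (-0.14) and MYC and nucleolus over high cells (-0.0028). Positions, run under 11 or 12, gave 241, 32 and 0. The 256 differences of named genes gave 1664, 632 and 8 among 2304 values. The causes were not tested. A mitochondrial limit of 10%, which leaves 599 cells, gave 1639 genes higher and 2295 lower than in low cells, 1380 higher and 969 lower than in high cells, 1843 higher than in the control, positions of 22.69 (mitotic kinases) and 72.14 (genes near absent from the control), and calls of 38.14% S and 22.68% G2/M. A floor of 25 CPM, which tests fewer genes, gave 646 lower than in low cells, 175 higher and 353 lower than in high cells and 368 higher than in the control. A floor of 1 CPM gave 1560 and 2968, 1570 and 975, and against the control 2921 and 1895. Totals without mitochondrial and ribosomal protein genes gave 805 higher than in high cells, and 2043 higher and 664 lower than in the control, where a median of ratios gave 750 lower. P after thinning gave 192 genes higher than in high cells, positions of 71.32 (licensing), 25.52 (mitotic kinases) and 87.16 (near absent), and calls of 31.03% G1, 50.95% S and 18.02% G2/M. Without limits on cells, positions were 45.27 (licensing) and 70.49 (near absent), with 53.68% G1, 41.37% S and 4.947% G2/M. Without the 5% of cells with the most UMIs they were 44.45 and 71.9, with 53.45% G1 and 4.121% G2/M. The 55th to 65th percentile gave 86.3 (near absent). A rank by other phase genes gave 73.77 (near absent), 32.84% G1, 49.5% S and 17.66% G2/M. Unthinned cells gave 49.38% G1 and 6.25% G2/M, and scoring the library alone 53.1% S and 5.046% G2/M. The added thinnings gave 46.9% and 51.61% G1, 37.84% S in the latter, and 9.977% and 10.55% G2/M. Reversed were, under the 10% limit, ICAM3 (0.39), KIF20A (1.30), SMTN (0.25) and SLC8A1 (-2.02) over low cells and SLC8A1 (-1.59) over high cells. KIF20A over low cells was also reversed for the 45th to 75th percentile (0.12) and with P after thinning (1.16), which reversed SESN3 over high cells (-0.054).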
